A study of Mus musculus with 18 samples.

Results

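The genes described here are 10 that build the nephron, followed in the postnatal mouse kidney: Six2, Cited1, Eya1, Osr1, Sall1, Lhx1, Pax8, Pax2, Gdnf and Ret. They were taken by symbol from a table of 22063 genes, and all 10 had a row. Kidneys were sequenced from wild-type (WT) and Ecm1 knockout (KO) mice aged 1, 2 and 4 weeks, with 3 libraries in each of the 6 groups and 18 in all. Ecm1 is the gene of extracellular matrix protein 1, a secreted glycoprotein, and the study's title concerns the mesangial cells of the glomerulus. The labels used here describe neither the knockout allele, the strain nor the sex, and they do not say whether the libraries of a group were separate animals, so that p-values measure the spread between these libraries, which may be technical. The comparisons ask how much of each gene's RNA was present at 1 week, when it was lost, and whether that differed without Ecm1.

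Nephrons form where a cap of mesenchymal progenitors surrounds the tips of the branching ureteric bud. The progenitors are held in a self-renewing state by Six2 and its partners, and they release Gdnf, a growth factor that binds Gfra1 and activates the receptor tyrosine kinase Ret on the bud tip, which in turn branches and keeps the cap supplied with Wnt signals. Cells that leave the cap gather into renal vesicles, turn on Lhx1 and Pax8, and become the epithelium of the nephron. In mice the last progenitors are used up within days of birth, after which no new nephrons are made.

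Stretches of 250 bases upstream of an annotated transcription start are shown for 4 genes on which the results below turn: Six2, which was almost without counts, Cited1 and Gdnf, which fell with age, and Lhx1, which rose. Sequences are from RefSeq on GRCm38.p6, given 5′ to 3′ on the strand of the gene. Capitals mark matches, on either strand, to the TATA box letters TATAAA, the CCAAT box letters CCAAT and the GC box letters GGGCGG, and matches to different motifs could overlap. The table had an entry for 7 of the 10 genes and none for Eya1, Osr1 and Ret.
Six2, chr17:85688255-85688504, minus strand: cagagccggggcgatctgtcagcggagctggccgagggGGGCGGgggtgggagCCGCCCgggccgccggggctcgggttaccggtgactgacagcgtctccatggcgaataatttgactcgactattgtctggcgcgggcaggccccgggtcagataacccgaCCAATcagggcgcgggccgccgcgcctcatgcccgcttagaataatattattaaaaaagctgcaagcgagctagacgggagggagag
Cited1, chrX:102252182-102252431, minus strand: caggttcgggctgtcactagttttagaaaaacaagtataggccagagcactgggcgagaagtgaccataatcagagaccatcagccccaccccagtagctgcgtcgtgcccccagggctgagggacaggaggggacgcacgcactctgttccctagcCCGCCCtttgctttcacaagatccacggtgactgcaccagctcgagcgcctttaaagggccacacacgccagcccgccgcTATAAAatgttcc
Gdnf, chr15:7809798-7810047, plus strand: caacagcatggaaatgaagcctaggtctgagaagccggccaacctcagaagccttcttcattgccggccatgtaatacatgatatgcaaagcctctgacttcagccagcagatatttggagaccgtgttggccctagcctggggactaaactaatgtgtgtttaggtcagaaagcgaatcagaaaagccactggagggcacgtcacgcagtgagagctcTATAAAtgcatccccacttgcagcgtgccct
Lhx1, chr11:84525535-84525784, minus strand: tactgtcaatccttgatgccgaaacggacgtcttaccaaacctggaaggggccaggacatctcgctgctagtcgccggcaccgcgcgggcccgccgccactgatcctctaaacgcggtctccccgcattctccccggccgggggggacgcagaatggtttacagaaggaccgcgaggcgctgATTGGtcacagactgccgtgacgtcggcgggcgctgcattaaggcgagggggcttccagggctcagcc
Among the starts nearest to the GENCODE 5′ end of each of the 7 genes, TATAAA was present upstream of 2 (Cited1 and Gdnf), CCAAT of 4 and GGGCGG of 4. Of 32851 promoter windows of this length, 12.4% held TATAAA, 33.8% CCAAT and 32.7% GGGCGG. The window of Six2 held 26 CpG dinucleotides, that of Lhx1 26, that of Cited1 13 and that of Gdnf 7, against a median of 6 over all windows. The nearest start listed for Gdnf lies 798 bases from the GENCODE 5′ end, and the other 3 lie within 20 bases of theirs. These are matches of letters and were not tested as binding sites.

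The 18 libraries held between 14930565 and 21427764 estimated counts each. Ecm1 had 301 to 1315 counts in the WT libraries and at most 2 in any KO library. A single WT library, number 3 at 1 week, stood apart in genes of the adrenal gland: its summed level of 8 adrenal cortex genes was 396 CPM (counts over the library size, which was scaled between libraries by the trimmed mean of M values, TMM), against 6.32 in the lowest library of its group, and that of 12 genes of adrenal medulla and peripheral neurons was 188 CPM, against 13. Both 2-week libraries numbered 1 also stood apart from the rest of their groups, with Cirbp, a cold-inducible RNA-binding protein, at 109.2 CPM in WT and 99.0 in KO, against 12.6 to 23.0 in the other 4. Ddx3y, a gene of the Y chromosome, had no count in 5 of the 6 libraries at 1 week, in 1 of 6 at 2 weeks, and 1 count in the KO library numbered 3 at 4 weeks; the other 11 libraries held 43.6 to 90.5 CPM. Its presence therefore moved with age, and its part in the age differences was not tested.

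Levels of different genes were compared per length, as the deposited FPKM (fragments scaled to gene length and library size). In WT kidneys at 1 week Pax8 stood highest at 51.7 ± 6.70 FPKM (mean ± SD, n = 3), followed by Pax2 at 17 ± 4.93 and Sall1 at 15.9 ± 1.26, whose ranges overlapped. Lhx1 came next at 5.62 ± 0.773 FPKM. The 6 other genes were lower: Cited1 at 2.14 ± 0.640, Osr1 at 1.21 ± 0.215, Ret at 0.485 ± 0.205, Gdnf at 0.342 ± 0.111, Eya1 at 0.296 ± 0.0964 and Six2 at 0.0210 ± 0.0364 FPKM. The ranges of Cited1 and Osr1 overlapped, as did those of Ret and Gdnf and of Gdnf and Eya1, while Six2 lay below every other gene. By 4 weeks in WT kidneys the order was Pax8 (35.0 ± 4.88 FPKM), Sall1 (12.9 ± 1.46), Lhx1 (6.90 ± 1.08), Pax2 (6.52 ± 0.700), Osr1 (1.11 ± 0.387), Eya1 (0.168 ± 0.118), Cited1 (0.134 ± 0.0450), Ret (0.114 ± 0.0478), Gdnf (0.0153 ± 0.00231) and Six2 (0.00933 ± 0.0162). Ranges overlapped there between Lhx1 and Pax2, between Eya1 and Cited1, between Cited1 and Ret and between Gdnf and Six2, so that the order within these pairs was not resolved. KO kidneys had the same first 4 genes at 4 weeks, with Pax8 at 33.4 ± 7.98, Sall1 at 20.1 ± 5.25, Lhx1 at 8.15 ± 1.76 and Pax2 at 5.75 ± 1.37 FPKM, the last pair again overlapping.

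Changes with age were tested on the counts with edgeR's quasi-likelihood F test, with p-values adjusted by the Benjamini-Hochberg method over 14774 genes and a gene called at an adjusted p under 0.05. Between 1 and 4 weeks 62.3% of all genes tested were called in WT and 57.1% in KO, so a call for any 1 gene was common. Groups whose CPM did not overlap were common too. Between 1 and 2 weeks this held for 41.7% of all genes in WT and 38.3% in KO. The shares were 55.0% and 43.3% between 2 and 4 weeks, and 73.6% and 64.6% between 1 and 4 weeks. Separation of ages for any gene below is to be read against these shares. Of the 10 genes, 9 passed the expression filter. Gdnf and Eya1 passed through the 1-week groups alone, and Cited1 through the 1- and 2-week groups, so these 3 were kept through the ages at which they were highest, and their calls are given as description and support nothing about the 9 together. Loss of RNA from a whole kidney can reflect fewer cells of a type or less RNA per cell, and these cannot be told apart here.

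**Figure D1:**
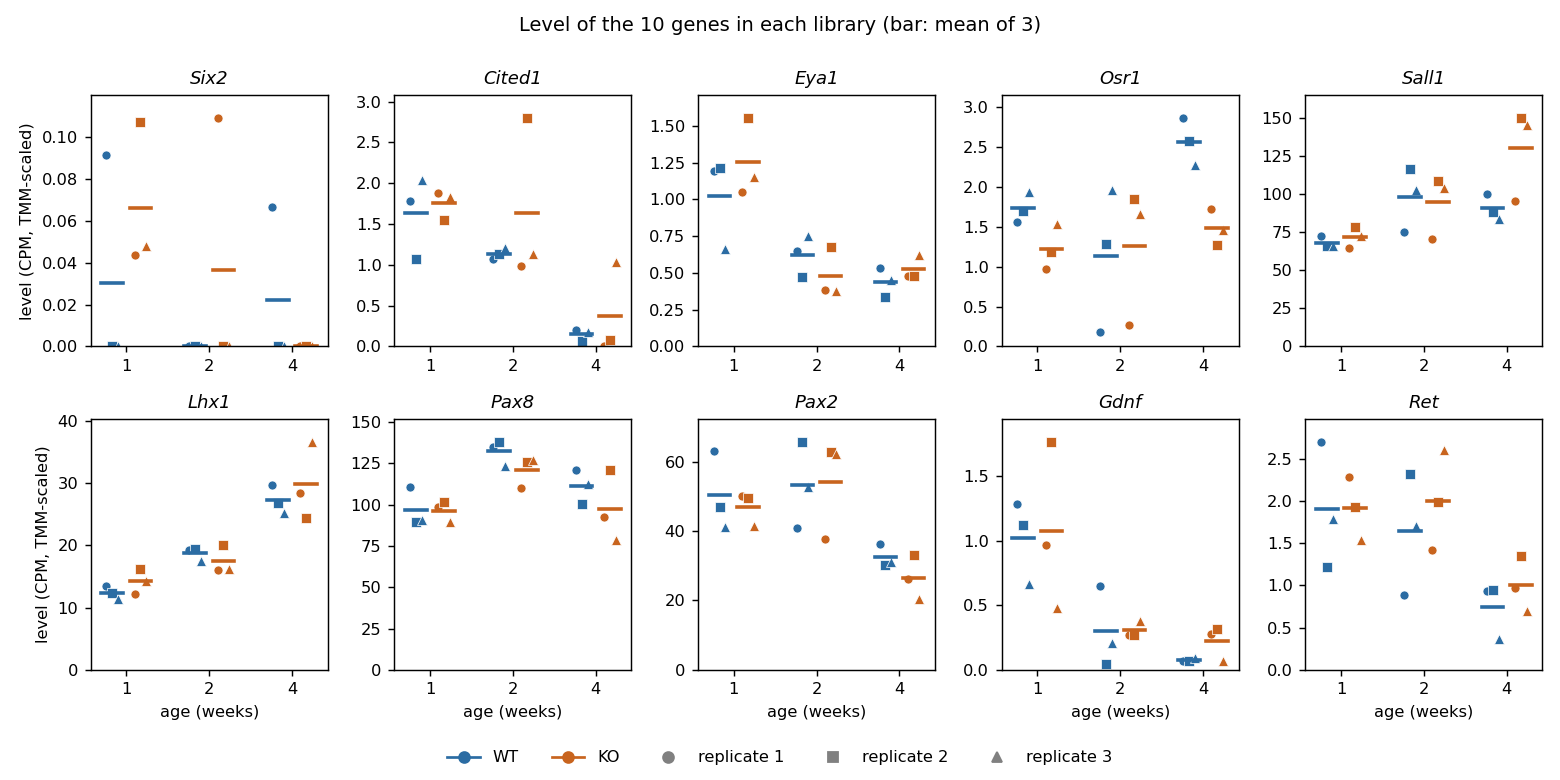
Level of each of the 10 genes in every library, in CPM on a linear axis from 0, by age in weeks; colours are genotypes, marker shapes the replicate numbers and bars the means of 3 libraries. Gdnf, Cited1 and Eya1 sit lower at 4 weeks than at 1 week, Lhx1 sits higher, and Six2 never passes 0.11 CPM.

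Six2, the homeobox factor that keeps cap cells from differentiating, was close to undetectable at 1 week. Its gene (ENSMUSG00000024134; chr17:85684277-85688274, minus strand, GENCODE M21 on GRCm38) had 2, 0 and 0 counts in the WT libraries at 1 week and 1, 2 and 1 in the KO libraries. Its total over all 18 libraries was 9 counts, in 6 libraries. At 2 weeks only KO library 1 had any (2 counts), and at 4 weeks only WT library 1 (1 count). For a group total of 0, as in WT at 2 weeks and KO at 4 weeks, a floor of 3 counts was used. Over the group's TMM-scaled total it equals 0.0484 and 0.0723 CPM, with counting error only. The exact Poisson interval of a total of 0 reaches somewhat higher, to 3.69 counts at the 95% level. The 4 counts of the KO group at 1 week have an exact Poisson interval of 1.09 to 10.2 and the 2 of the WT group one of 0.242 to 7.22 at the 95% level, so that no difference was detectable at this depth. Six2 failed the expression filter (0.552 CPM) and was not tested.

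Cited1, a transcriptional co-regulator of the least committed cap cells, fell between 2 and 4 weeks. The gene (ENSMUSG00000051159; chrX:102247381-102252181, minus strand) gave 1.79, 1.07 and 2.04 CPM in WT libraries 1, 2 and 3 at 1 week, 1.07, 1.14 and 1.21 at 2 weeks and 0.199, 0.0676 and 0.182 at 4 weeks. All 3 WT libraries at 4 weeks lay below the lowest at either earlier age; groups at 2 and 4 weeks did not overlap for 55.0% of all genes in WT and 43.3% in KO. KO libraries held 1.88, 1.55 and 1.83 CPM at 1 week, 0.981, 2.80 and 1.14 at 2 weeks and 0, 0.0796 and 1.04 at 4 weeks. KO library 3 at 4 weeks, the one with 1 Ddx3y count, stood at the level of the 2-week libraries with 15 Cited1 counts, whereas libraries 1 and 2 had 0 and 1. By 4 weeks Cited1 had fallen to 9.42% of its 1-week level in WT (95% interval 2.70% to 32.8%; log2 fold change -3.41 ± 0.85 SE, edgeR adjusted p = 0.00235) and to 22.0% in KO (7.51% to 64.2%; -2.19 ± 0.73, edgeR adjusted p = 0.0175). The step from 1 to 2 weeks was not called in either genotype (-0.52 ± 0.63 and -0.09 ± 0.62), and the step from 2 to 4 weeks was called in both (-2.89 ± 0.87, edgeR adjusted p = 0.0117, and -2.10 ± 0.73, 0.0337). The WT step missed the threshold without WT library 2 at 4 weeks (edgeR adjusted p = 0.0529), and the KO step without KO library 2 at 2 weeks (0.164) or without KO library 1 or 2 at 4 weeks (0.0983 and 0.110). Both KO calls were lost when only the groups compared were fitted (edgeR adjusted p = 0.0603 for 1 to 4 weeks and 0.159 for 2 to 4 weeks). In KO the size rested on single libraries: the change from 1 to 4 weeks was -5.33 without library 3 at 4 weeks (edgeR adjusted p = 8.01e-05), -1.60 without library 1 (0.0536) and -1.75 without library 2 (0.0673).

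Eya1 encodes a co-activator that works with Six2 and is needed for Gdnf expression in the mesenchyme. It lies on chr1:14168954-14310235, minus strand (ENSMUSG00000025932), where an annotated miRNA gene overlaps it on the opposite strand and another transcript on the same strand; the sources used here do not say whether counting used strand. Its level was 1.19, 1.22 and 0.662 CPM in WT at 1 week, 0.652, 0.474 and 0.749 at 2 weeks and 0.532, 0.338 and 0.454 at 4 weeks. KO libraries gave 1.05, 1.55 and 1.15, then 0.382, 0.677 and 0.379, then 0.482, 0.477 and 0.624 CPM. In both genotypes the 4-week libraries all lay below the 1-week libraries, and in KO the 2-week libraries did so too. Eya1 fell between 1 and 4 weeks to 43.4% in WT (-1.20 ± 0.39, edgeR adjusted p = 0.0131) and to 42.7% in KO (-1.23 ± 0.38, edgeR adjusted p = 0.0107). In KO the fall was called by 2 weeks (-1.36 ± 0.36, edgeR adjusted p = 0.0152), but it was not without KO library 2 at 1 week (adjusted p = 0.0783) or without KO library 1 or 3 at 2 weeks (0.0600 and 0.0583, edgeR). The same step in WT was -0.71 ± 0.36 (edgeR adjusted p = 0.169), and the genotypes' steps differed by -0.65 ± 0.51 (edgeR adjusted p = 1). Eya1 had 5 to 9 counts per library at 4 weeks. The fall in WT from 1 to 4 weeks was lost on the FPKM scale (-0.15 on log2(FPKM + 1), limma adjusted p = 0.184). It was also lost without WT library 1 or 2 at 1 week or library 2 at 4 weeks (edgeR adjusted p = 0.0515, 0.0524 and 0.0620). The fall in KO was lost without KO library 2 at 1 week (edgeR adjusted p = 0.0524). The cause of these losses was not tested.

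Osr1, a zinc-finger factor of the earliest kidney mesoderm, showed no call with age. The gene (ENSMUSG00000048387; chr12:9570116-9581500, plus strand) shares its start region with a long non-coding gene on the opposite strand. WT libraries held 1.56, 1.70 and 1.94 CPM at 1 week, 0.178, 1.28 and 1.96 at 2 weeks and 2.86, 2.57 and 2.27 at 4 weeks. In KO the values were 0.964, 1.18 and 1.54, then 0.273, 1.85 and 1.66, then 1.72, 1.27 and 1.46 CPM. The lowest values at 2 weeks were those of the libraries numbered 1 in both genotypes, far below every other library. All WT libraries at 4 weeks lay above those of both earlier ages, and in KO the ranges of all ages overlapped. Over the whole period from 1 to 4 weeks the change was 0.57 ± 0.57 in WT and 0.28 ± 0.60 in KO (edgeR adjusted p = 0.398 and 0.709), and both turned negative on library totals (-0.14 and -0.32) and on log2(FPKM + 1) (-0.07 and -0.04). With the replicate number as a block within age, Osr1 was called lower from 1 to 2 weeks in WT (-1.09, edgeR adjusted p = 0.0142) and higher from 2 to 4 weeks (1.66, 0.000650).

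Sall1, a zinc-finger repressor needed for ureteric bud invasion and for the cap, was not called lower at any step under TMM scaling. It lies on chr8:89027235-89044162, minus strand (ENSMUSG00000031665). WT values were 72.8, 66.0 and 65.7 CPM at 1 week, 75.2, 116 and 103 at 2 weeks and 100.2, 88.2 and 83.9 at 4 weeks. Those of KO were 64.6, 78.2 and 72.6, then 70.5, 109 and 104, then 95.6, 150.0 and 145 CPM. KO libraries 2 and 3 at 4 weeks were higher than any of the other 16 libraries. Between 1 and 4 weeks Sall1 rose in KO to 181% (0.86 ± 0.19, edgeR adjusted p = 0.00106), a call that was lost on library totals (0.27, adjusted p = 0.294) and on log2(FPKM + 1) (0.23, limma adjusted p = 0.371). In WT the change was 0.41 ± 0.19 (edgeR adjusted p = 0.0675), called when only the groups compared were fitted (0.00241), and it turned negative on library totals (-0.30) and on log2(FPKM + 1) (-0.28). The replicate block, and DESeq2 as well, called the WT step from 1 to 2 weeks (0.50, edgeR adjusted p = 0.0254, against 0.0545 without it) and the KO step from 2 to 4 weeks (0.47, 0.0234, against 0.0657). On library totals Sall1 was called lower from 2 to 4 weeks in WT (-0.60, edgeR adjusted p = 0.0298).

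The genes of the forming nephron epithelium took different courses. Lhx1, a LIM homeobox factor of the renal vesicle and nephric duct, rose from 1 to 4 weeks in both genotypes. Its gene is on chr11:84518284-84525535, minus strand (ENSMUSG00000018698). WT libraries had 13.5, 12.4 and 11.4 CPM at 1 week, 19.2, 19.5 and 17.5 at 2 weeks and 29.6, 26.9 and 25.3 at 4 weeks. The 3 WT groups did not overlap at any age. In KO the values were 12.1, 16.2 and 14.3, then 16.1, 20.1 and 16.2, then 28.4, 24.3 and 36.7 CPM, with an overlap between 1 and 2 weeks. At 4 weeks Lhx1 stood at 219.7% of its 1-week level in WT (175% to 275%; 1.14 ± 0.15, edgeR adjusted p = 8.39e-06) and at 209.9% in KO (168% to 262%; 1.07 ± 0.15, 1.93e-05). Scaled by library totals the rise was 0.42 in WT and 0.48 in KO (edgeR adjusted p = 0.0301 and 0.0176), and on log2(FPKM + 1) the WT change was 0.25 and no longer called (limma adjusted p = 0.138). The WT steps, 0.59 ± 0.15 from 1 to 2 weeks and 0.54 ± 0.15 from 2 to 4 weeks (edgeR adjusted p = 0.0102 and 0.00731), were both lost on library totals (0.120 and 0.729) and on log2(FPKM + 1). The KO step from 2 to 4 weeks, 0.77 ± 0.15 (edgeR adjusted p = 0.000952), was lost on library totals (0.0552). Mean FPKM of Lhx1 went from 5.62 ± 0.773 to 6.90 ± 1.08 in WT and from 5.17 ± 0.375 to 8.15 ± 1.76 in KO.

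Pax8, the paired-box factor that marks renal vesicles and stays on in tubule epithelium, was present at a high level throughout. It is on chr2:24420560-24475599, minus strand (ENSMUSG00000026976), with an annotated transcript on the opposite strand. WT libraries held 110.5, 89.5 and 91.0 CPM at 1 week, 135, 138 and 124 at 2 weeks and 121, 100.2 and 113 at 4 weeks. KO libraries held 98.5, 102 and 89.4, then 109.9, 126 and 127, then 92.4, 121 and 78.6 CPM at the 3 ages. The 2-week libraries lay above the 1-week libraries in both genotypes. The 4-week libraries overlapped those of 1 week in both, and those of 2 weeks in KO. Pax8 rose from 1 to 2 weeks in WT (0.45 ± 0.13, edgeR adjusted p = 0.0240), a call lost on library totals, FPKM and upper-quartile scaling and without any 1 of 4 libraries (WT library 2 or 3 at 1 week, WT library 1 or 2 at 2 weeks; edgeR adjusted p up to 0.0786). From 1 to 4 weeks the change was 0.20 ± 0.13 in WT and 0.01 ± 0.13 in KO, and it turned into a called fall on library totals (-0.52, edgeR adjusted p = 0.00531, and -0.58, 0.00253) and on log2(FPKM + 1) (-0.55, limma adjusted p = 0.00253, and -0.63, 0.000999). The step from 2 to 4 weeks, -0.25 ± 0.13 in WT and -0.31 ± 0.13 in KO and not called, was called lower on those scales and with upper-quartile scaling (-0.35 and -0.39, edgeR adjusted p = 0.0439 and 0.0344).

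Pax2, the paired-box factor of the ureteric bud, the cap and its early derivatives, fell between 2 and 4 weeks. Its gene is on chr19:44756045-44837871, plus strand (ENSMUSG00000004231), with 2 antisense genes and a miRNA gene annotated within it. WT values were 63.1, 47.0 and 41.1 CPM at 1 week, 41.0, 65.9 and 52.8 at 2 weeks and 36.4, 30.3 and 31.0 at 4 weeks. KO values were 50.2, 49.6 and 41.4, then 37.7, 62.7 and 62.2, then 26.2, 33.3 and 20.4 CPM. Within each genotype the 4-week libraries lay below all libraries of both earlier ages. From 2 to 4 weeks Pax2 fell to 61.2% in WT (-0.71 ± 0.22, edgeR adjusted p = 0.0160) and to 49.0% in KO (-1.03 ± 0.23, 0.00225), and from 1 to 4 weeks to 64.6% and 56.5% (0.0224 and 0.00546). The WT call from 1 to 4 weeks was lost without WT library 1 at 1 week (-0.42, edgeR adjusted p = 0.134) and without WT library 2 or 3 at 4 weeks (0.0713 and 0.0646). The WT call from 2 to 4 weeks was lost without WT library 2 at 2 weeks (0.0825) and without library 2 or 3 at 4 weeks (0.0559 and 0.0518).

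Gdnf, the ligand of the cap, was lower at 2 weeks than at 1 week in every library. The gene (ENSMUSG00000022144; chr15:7810846-7837575, plus strand) gave 1.28, 1.12 and 0.662 CPM in WT at 1 week, 0.652, 0.0474 and 0.208 at 2 weeks and 0.0665, 0.0676 and 0.0908 at 4 weeks. KO libraries gave 0.964, 1.77 and 0.481, then 0.273, 0.271 and 0.379, then 0.276, 0.318 and 0.0693 CPM. In both genotypes every 2-week and 4-week library lay below every 1-week library of that genotype, by a narrow margin in WT, where library 1 at 2 weeks stood next to library 3 at 1 week. Of all genes, 41.7% in WT and 38.3% in KO had libraries at 1 and 2 weeks that did not overlap, and 73.6% and 64.6% at 1 and 4 weeks. At 4 weeks each WT library held 1 Gdnf count, 3 in all (exact Poisson interval 0.619 to 8.77), against 64 at 1 week. By 2 weeks Gdnf stood at 28.5% in WT (11.1% to 73.1%) and 29.4% in KO (11.6% to 74.2%), just outside the threshold in each (edgeR adjusted p = 0.0510 and 0.0603) and inside it with the replicate block (0.0247 and 0.0495) and on library totals (0.0229 and 0.0303). It stayed outside when only the groups compared were fitted (edgeR adjusted p = 0.112 and 0.0578). With 1 library left out, the edgeR adjusted p ran from 0.00992 to 0.174 in WT and from 0.0440 to 0.279 in KO. By 4 weeks Gdnf had fallen to 7.81% in WT (-3.68 ± 0.84, edgeR adjusted p = 0.00120) and to 21.0% in KO (-2.25 ± 0.70, 0.0119). The KO call was lost without KO library 2 at 1 week or library 3 at 4 weeks (edgeR adjusted p = 0.0705 and 0.0562).

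Ret, the receptor on the bud tip, overlapped its 1-week level at 2 weeks and was lower at 4 weeks. It is on chr6:118151745-118197718, minus strand (ENSMUSG00000030110). WT libraries held 2.70, 1.22 and 1.78 CPM at 1 week, 0.888, 2.32 and 1.71 at 2 weeks and 0.931, 0.946 and 0.363 at 4 weeks. KO libraries held 2.28, 1.93 and 1.54, then 1.42, 1.99 and 2.60, then 0.965, 1.35 and 0.693 CPM. At 2 weeks the ranges overlapped those of 1 week in both genotypes, and at 4 weeks all libraries lay below those of 1 week. The level at 2 weeks was 86.8% of that at 1 week in WT (47.7% to 158%) and 105% in KO (57.9% to 189%). From 1 to 4 weeks Ret fell in WT to 40.3% (-1.31 ± 0.45, edgeR adjusted p = 0.0177), though not without WT library 1 at 1 week (0.101) or library 3 at 4 weeks (0.0779). In KO it was 52.2% (-0.94 ± 0.43) and missed the threshold (edgeR adjusted p = 0.0763), which it passed on library totals (0.00784). The step from 2 to 4 weeks missed the threshold too (edgeR adjusted p = 0.0520 in WT and 0.0806 in KO) and passed it with the block (0.0192 and 0.0276), on library totals (0.00861 and 0.0192) and on log2(FPKM + 1) (limma, 0.0486 and 0.0332). In WT it also passed with DESeq2 (adjusted p = 0.0470) and with upper-quartile scaling (0.0375, edgeR).

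Counted over the 9 tested genes, calls under TMM scaling without the replicate block were no more common than over all genes in either step. From 1 to 2 weeks 2 of 9 were called in WT, Lhx1 and Pax8, both higher, where 23.6% of all genes were called (12.5% upward, 11.1% downward), and 1 of 9 in KO, Eya1, lower, where 19.5% were (10.3% higher and 9.16% lower). With the replicate block the counts were 5 and 2. Among all genes (14774 in the fit without the block), the block called 2444 higher and 2398 lower in WT. In KO it called 2154 and 2139. From 2 to 4 weeks Cited1 and Pax2 were called lower and Lhx1 higher in each genotype, 3 of 9, against 48.3% of all genes in WT (23.5% higher and 24.8% lower) and 36.9% in KO (18.2% and 18.7%); the block gave 5 in each. For that step the block called 4116 of all genes higher and 4206 lower in WT, and 3337 and 3443 in KO. On library totals the directions differed. From 1 to 2 weeks 0 of the 9 were higher and 1 lower in WT and 0 and 2 in KO. From 2 to 4 weeks 0 were higher and 7 lower in WT and 0 and 4 in KO. All genes also went mostly lower on that scale. From 1 to 2 weeks 871 were called higher and 3338 lower in WT, and 759 and 2859 in KO. From 2 to 4 weeks the numbers were 1244 and 7949 in WT and 1054 and 6569 in KO. From 1 to 4 weeks 6 of 9 were called in WT, 5 lower and 1 higher, and 6 of 9 in KO, 4 lower and 2 higher. Those shares are near the 62.3% and 57.1% of all genes. The lower counts include Cited1, Eya1 and Gdnf in both genotypes, which were kept through the ages at which they were highest. The other falls were Pax2 and Ret in WT and Pax2 in KO. The counts are therefore description, also where Cited1 or Eya1 enters a single step. Shares by direction were 31.8% lower and 30.5% higher in WT and 28.7% and 28.4% in KO. The WT count from 1 to 2 weeks was 1 without WT library 2 or 3 at 1 week or WT library 2 at 2 weeks. The WT count from 1 to 4 weeks was 3 without WT library 1 at 1 week, and that from 2 to 4 weeks was 1 without WT library 2 at 4 weeks. The KO count from 1 to 2 weeks was 0 without KO library 2 at 1 week or KO library 3 at 2 weeks, and 2 without KO library 3 at 1 week. Shares over all genes are not given for the fits with 1 library left out.

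**Figure D2:**
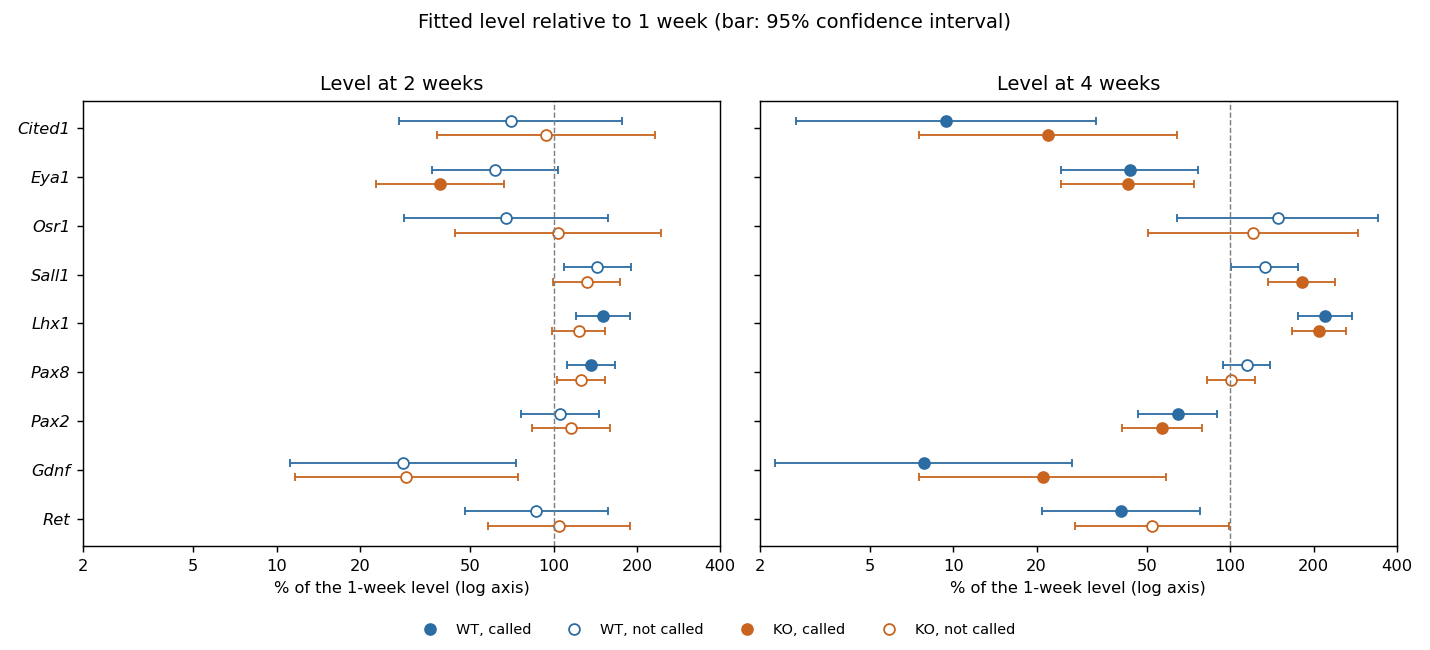
Fitted level of each of the 9 tested genes at 2 weeks (left) and 4 weeks (right) as a percentage of the level at 1 week, on a log axis, with 95% confidence intervals; filled points were called by edgeR. At 4 weeks Gdnf and Cited1 lie farthest below 100% in WT (7.81% and 9.42%), with KO at 21.0% and 22.0% and wide intervals that overlap those of WT.

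Between genotypes none of the 9 tested genes was called at any age. At 1 week and at 2 weeks 0 of 9 genes were called, where 0.00677% of all genes were (a single gene), and at 4 weeks 0 of 9, where 3.23% were. Unadjusted p-values under 0.05 were 0 of 9 at 1 and 2 weeks and 1 of 9 at 4 weeks, and DESeq2 called none at any age. That one was Sall1, which at 4 weeks differed by 0.52 ± 0.19 on the log2 scale, KO minus WT (0.12 to 0.92; edgeR adjusted p = 0.151), and which passed without KO library 1 at 4 weeks (0.70, edgeR adjusted p = 0.0272). Osr1 was lower in each KO library than in each WT library at 1 week and at 4 weeks, at 70.9% (30.4% to 166%) and 57.9% (24.4% to 137%) of WT; 9.35% and 20.9% of all genes had groups that did not overlap at those ages (5.1% at 2 weeks), and neither difference was called (edgeR adjusted p = 1 and 0.562). For the abundant genes the intervals were narrower than for the rare ones. That of Pax2 ran from -0.57 to 0.37 at 1 week and from -0.78 to 0.19 at 4 weeks, and that of Sall1 from -0.33 to 0.47 at 1 week. Pax8 differed by -0.29 to 0.28 at 1 week and -0.48 to 0.09 at 4 weeks, and Lhx1 by -0.13 to 0.52 and -0.19 to 0.45 (log2, KO minus WT). The rare genes allow larger differences: at 4 weeks Cited1 was 1.33 ± 0.99 (-0.77 to 3.42) and turned to -1.81 without KO library 3, and Gdnf was 1.48 ± 1.03 (-0.70 to 3.66). At 4 weeks 10 proximal tubule genes summed to 16350 to 22340 CPM in KO and 30750 to 33130 in WT, with 2 of 10 called lower, and 10 podocyte genes to 1473 to 1519 and 1018 to 1173 CPM, with 3 of 10 called higher; their part in the differences at that age was not tested.

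**Figure D3:**
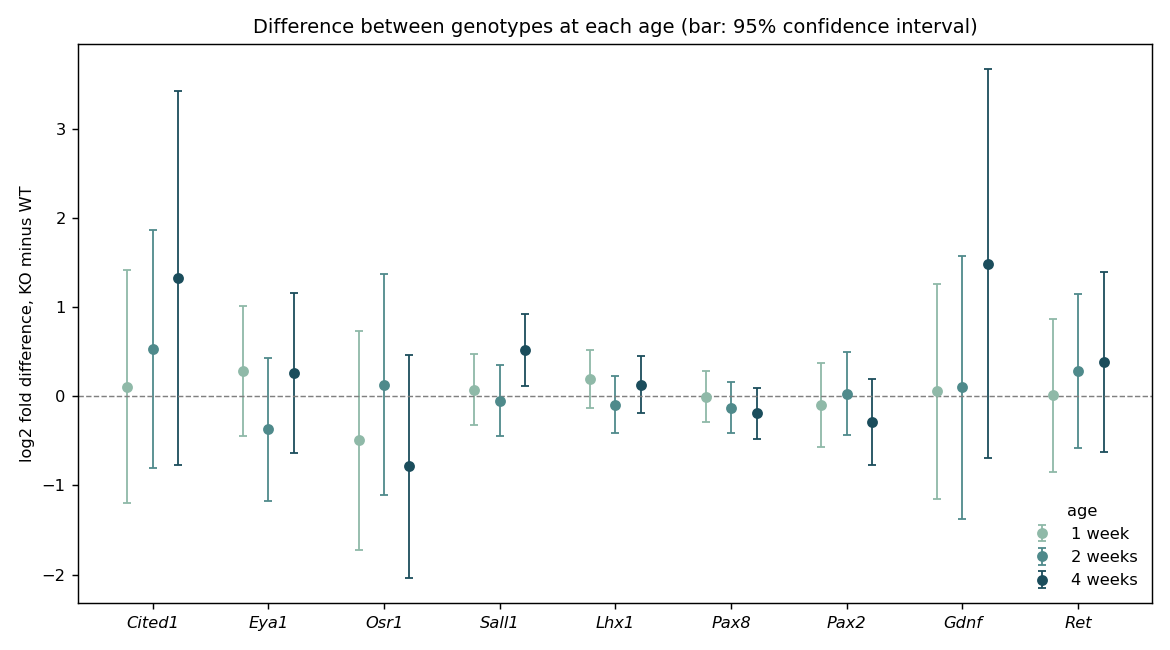
Difference between KO and WT for the 9 tested genes at 1, 2 and 4 weeks, as log2 fold differences with 95% confidence intervals. Sall1 at 4 weeks is the 1 interval that leaves out 0 (0.12 to 0.92), and those of Cited1 and Gdnf at 4 weeks are the widest.

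Whether the loss itself differed between genotypes was tested as an interaction of genotype with age. No member was called for the step from 1 to 2 weeks, where 0.0% of all genes were, for that from 2 to 4 weeks, where 0.176% were, or for the whole change from 1 to 4 weeks, where 0.0609% were. At an unadjusted edgeR p under 0.05 the count was 0, 1 (Sall1) and 0 of 9, where 127, 1441 and 1399 of all 14774 genes passed. DESeq2 called 0 of the 9 in each. Over all genes it called 2 higher and 0 lower, 90 and 97, and 70 and 67. For Gdnf the change from 1 to 4 weeks differed by 1.43 ± 1.17 (-1.05 to 3.90), for Cited1 by 1.22 ± 1.16 (-1.24 to 3.68), for Eya1 by -0.02 ± 0.60 (-1.29 to 1.25) and for Pax2 by -0.19 ± 0.32 (-0.87 to 0.48). For Lhx1 the difference was -0.07 ± 0.21 (-0.52 to 0.39) and for Ret 0.37 ± 0.62 (-0.95 to 1.69).

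The 2-week groups carried a second source of spread. Replicate number within 2 weeks was called for 35.6% of all genes and for 3 of the 9 (edgeR): Sall1 (adjusted p = 0.00253), Pax2 (0.00455) and Osr1 (0.00854). At 1 and 4 weeks no member was called, with 0.0474% and 0.0% of all genes. Libraries numbered 1 held the least Sall1, Pax2, Osr1, Ret and Cited1 of their 2-week group in both genotypes. WT library 1 also held the most Gdnf of its group. Without both of these libraries the WT step from 1 to 2 weeks called 4 genes, with Gdnf lower (-2.90, edgeR adjusted p = 0.0103) and Sall1 higher (0.68, 0.00647) beside Lhx1 and Pax8, and Ret turned from -0.21 ± 0.41 to 0.08. In KO the call of Eya1 was lost (-1.23, edgeR adjusted p = 0.0527) and Sall1 was called higher (0.57, 0.0186). Calls over all genes are not given for this fit, so whether the members gained calls beyond other genes cannot be read from these counts.

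**Figure D4:**
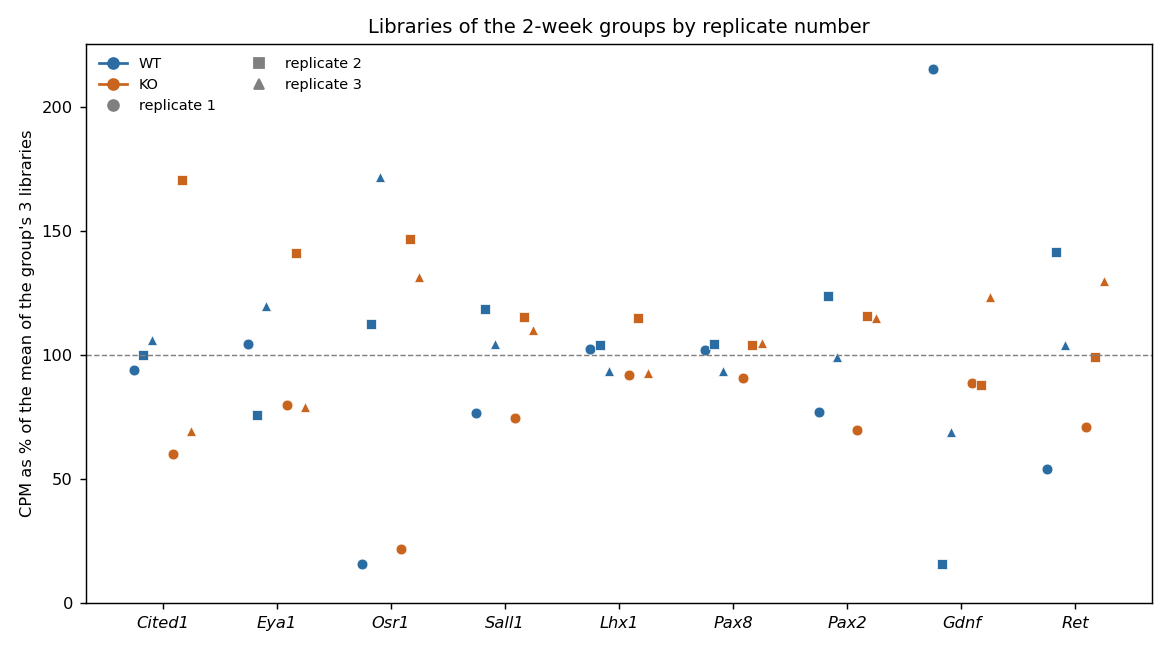
CPM of each tested gene in the 6 libraries of the 2-week groups, as a percentage of the mean of its genotype's 3 libraries; colours are genotypes and marker shapes the replicate numbers. For Osr1, Sall1, Pax2, Ret and Cited1 the circles of replicate 1 are the lowest points in both genotypes.

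How libraries were scaled set the direction from 1 to 4 weeks for Pax8 and Osr1 in both genotypes and for Sall1 in WT. TMM factors ran from 1.20 to 1.26 at 1 week and from 0.737 to 0.836 at 4 weeks. Scaling by library totals instead moved the median of all genes by -0.71 from 1 to 4 weeks in WT and by -0.60 in KO (log2), and the share of higher genes among those called went from 49% to 15.7% in WT and from 49.7% to 16.3% in KO. Such a change of scale moves all genes by nearly the same amount, and with it Pax8, Sall1 and Osr1 went from positive to negative in WT, and Pax8 and Osr1 in KO. On log2(FPKM + 1), a scale that understates the change of low genes, the WT change was -0.40 for Gdnf, -1.45 for Cited1 and -0.41 for Ret (limma adjusted p = 0.00156, 0.000147 and 0.00366).

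**Figure D5:**
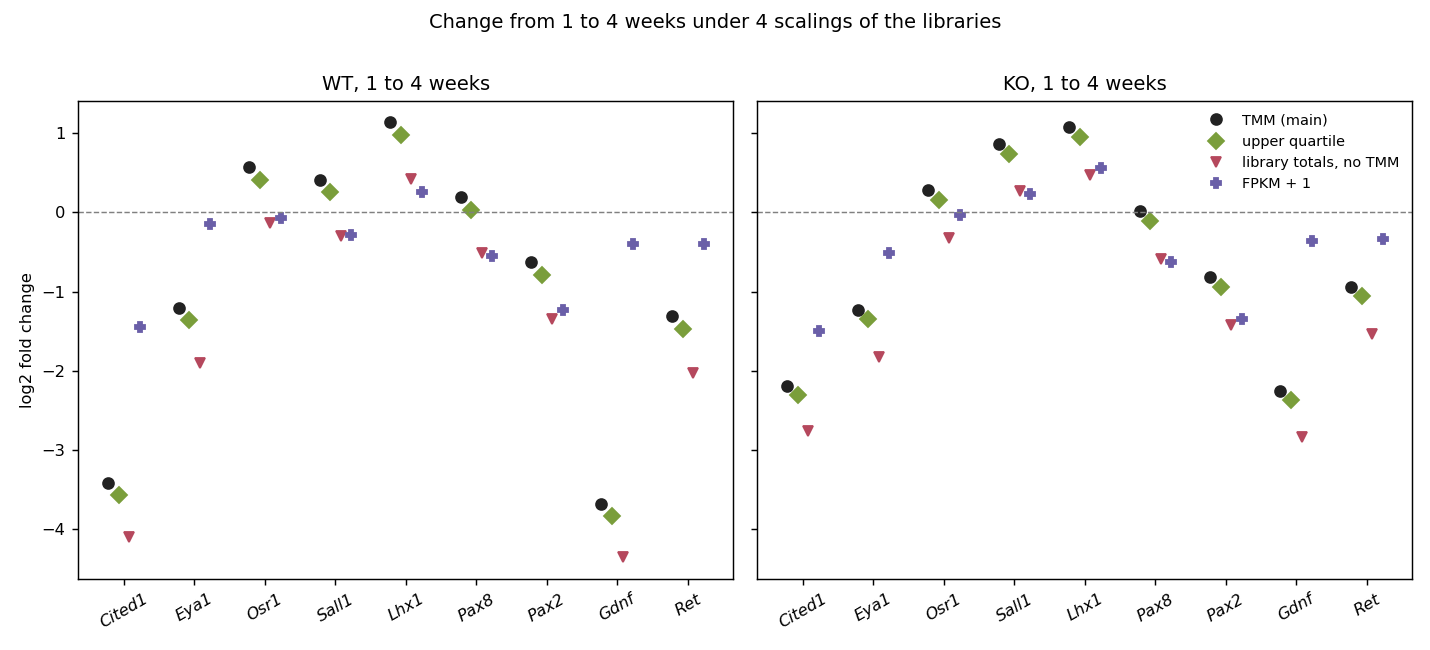
Log2 fold change from 1 to 4 weeks of the 9 tested genes in WT (left) and KO (right) under TMM, upper-quartile and library-total scaling of the counts and on log2(FPKM + 1). Library totals lie below TMM for every gene by nearly the same distance, and Pax8 (-0.52), Sall1 (-0.30) and Osr1 (-0.14) cross 0 in WT.

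Further genes of the same structures are described by list, from 1 to 4 weeks. The lists were compiled with earlier results of these data known. Over all genes 31.8% were called lower and 30.5% higher in WT and 28.7% and 28.4% in KO, with medians of -0.04 and -0.03, and each list is to be read against these shares. Of 18 further cap mesenchyme genes 16 were tested, and from 1 to 4 weeks 9 fell and 1 rose in each genotype, with a median log2 fold change of -1.44 in WT and -1.26 in KO. Meox1, a homeobox gene of the cap, fell in both (-0.54 ± 0.17 in WT). Itga8, an integrin of the cap and of mesangial cells, fell from 170.2 ± 13.8 CPM to 18.1 ± 2.07 in WT and from 152 ± 12.9 to 24.3 ± 8.39 in KO, and was already lower at 2 weeks (85.2 ± 8.71 and 86.6 ± 5.52). Crym, which binds thyroid hormone, was the gene of the list that rose (1.23 ± 0.22 in WT and 1.07 ± 0.22 in KO).

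Among 20 further genes of the renal vesicle and S-shaped body 18 were tested, and from 1 to 4 weeks 8 fell and 3 rose in WT, with a median of -0.33, and 7 fell and 1 rose in KO, with a median of -0.27. The list's summed level was 998 to 1119 CPM at 1 week and 986 to 1180 CPM at 4 weeks in WT, which overlap, and 1046 to 1175 and 756 to 999.9 CPM in KO. Wnt4, the signal that turns cap cells into epithelium, went from 29.1 ± 10.3 CPM at 1 week to 10.3 ± 7.02 at 2 and 4.14 ± 1.91 at 4 weeks in WT, and from 30.3 ± 3.33 to 10.9 ± 9.66 to 2.34 ± 2.39 in KO. It was called from 1 to 4 weeks (-2.79 ± 0.67, edgeR adjusted p = 0.00171, and -3.73 ± 0.72, 0.000327) and not from 1 to 2 weeks. Jag1, a Notch ligand of the S-shaped body, fell (-1.91 ± 0.21 in WT), whereas Dll1, another Notch ligand, was -0.28 ± 0.19 in WT and -0.13 ± 0.19 in KO and was not called. Fgf8, a survival signal of the vesicle, had 2 counts in WT and 7 in KO at 1 week and was not tested.

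On the ureteric bud side, all 18 further tip and trunk genes were tested, and from 1 to 4 weeks 13 fell and 2 rose in each genotype, with medians of -1.27 in WT and -1.0 in KO. The summed level of the list was instead higher at 4 weeks in WT, at 893 to 952 CPM against 566 to 722 at 1 week, and in KO it was 526 to 1287 against 698 to 778. Wnt11, a Ret target at the tip, went from 21.3 ± 3.77 CPM at 1 week to 10.5 ± 3.26 at 2 and 2.63 ± 0.991 at 4 weeks in WT and from 23.0 ± 0.426 to 12.3 ± 0.741 to 1.95 ± 0.273 in KO, called lower at every step. Wnt9b, the bud signal to the cap, fell from 1 to 4 weeks (-2.51 ± 0.66 in WT and -3.08 ± 0.68 in KO). Sox9, a factor of the tip, fell in both as well (-1.63 ± 0.58 and -1.46 ± 0.56), and its relative Sox8 fell in WT (-1.78 ± 0.39) and was 0.74 ± 0.35 in KO. Of 17 further genes of Gdnf and Ret signalling 16 were tested, and from 1 to 4 weeks 11 fell and 0 rose in WT and 10 fell and 1 rose in KO, with medians of -1.46 and -0.92. Etv4, a transcription factor induced by Ret, fell by 2 weeks (-1.87 ± 0.50 in WT, edgeR adjusted p = 0.0127, and -2.38 ± 0.52 in KO, 0.00461). Spry1, an inhibitor of Ret signalling, fell from 1 to 4 weeks (-1.98 ± 0.17 and -1.89 ± 0.17). Gfra1, the co-receptor of Gdnf, ranged widely between libraries and was not called (21.1 ± 5.90 CPM at 1 week and 25.2 ± 18 at 4 weeks in WT), nor was Etv5 from 1 to 4 weeks (0.21 ± 0.24 in WT).

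Lists of the surrounding stroma and of dividing cells were mostly called lower. From 1 to 4 weeks 10 of 11 genes of the nephrogenic stroma fell and 1 rose in each genotype, with medians of -2.54 in WT and -1.83 in KO; 8 of them had fallen by 2 weeks in each, where 11.1% of all genes in WT and 9.16% in KO were called lower. Foxd1, the factor that defines this stroma, went from 9.56 ± 2.67 CPM to 5.46 ± 1.60 and 2.00 ± 0.702 in WT and from 10.1 ± 0.759 to 4.72 ± 0.464 and 3.87 ± 0.602 in KO. Among homeobox genes active in it, from 1 to 4 weeks in WT, Meis1 was -2.54 ± 0.28 and Meis2 -2.04 ± 0.12, both called. All 20 proliferation genes fell from 1 to 4 weeks in both (medians -2.12 and -2.13), among them Mki67, from 124 ± 12.3 to 28.5 ± 13.2 CPM in WT, Top2a (-2.45 ± 0.36), Cdk1 (-2.12 ± 0.31) and Ccnb1 (-1.82 ± 0.32). From 1 to 2 weeks 4 of the 20 were called lower in WT and 2 in KO. Markers of mature cells differed by list. All 10 proximal tubule genes rose from 1 to 4 weeks in both genotypes, and 9 of 10 genes of the thick limb and distal convoluted tubule rose and 1 fell. Of 10 collecting duct genes 3 rose in each, while 2 fell in WT and 3 in KO. Podocyte genes went the same way as the developmental lists: 9 of 10 fell in WT and 5 of 10 in KO, with 0 called higher (medians -1.17 and -0.35). On library totals the proximal tubule count was 9 higher in WT and 10 in KO, that of the thick limb and distal convoluted tubule 5 and 6 higher, and the collecting duct median turned from 0.35 to -0.36 in WT and from 0.27 to -0.33 in KO. The medians of the cap, vesicle, bud, Gdnf and Ret, stroma and proliferation lists stayed negative on library totals, upper-quartile scaling and log2(FPKM + 1).

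Genes of the adrenal gland and of hepatocytes were high in WT library 3 at 1 week. Summed over their lists, the adrenal cortex genes ran from 4.00 to 16.7 CPM in the other 17 libraries, with 5 of 8 at 0 in each 4-week group, and those of adrenal medulla and neurons from 5.17 to 21.1 CPM, with 5 of 12 at 0 in WT and 3 of 12 in KO at 4 weeks. The 10 skeletal muscle genes summed to 1.46 to 6.97 CPM over all 18 libraries. The 10 hepatocyte genes summed to 984.8 CPM in WT library 3 at 1 week, against 112.4 and 267.2 in the other WT libraries of that age and 166.4 to 293.6 in KO, and to 223.5 to 1052 CPM at the later ages. From 1 to 2 weeks 5 of the 10 were called lower in WT. WT library 3 was the lowest of its group for Eya1, Gdnf, Pax2, Sall1 and Lhx1 and the highest for Cited1 and Osr1. Without it the WT change from 1 to 4 weeks was -3.90 for Gdnf, -3.21 for Cited1, -1.42 for Eya1, -0.75 for Pax2 and -1.34 for Ret, all still called. The part of these other tissues in the age results was not tested.

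The genes most like each of the 9 over the 18 libraries were found by Pearson correlation of log2 CPM among genes of at least 1 CPM on average. All points share age as a source of variation, so these are descriptions. Cited1 was nearest to Id3, an inhibitor of basic helix-loop-helix factors (r = 0.93), and Id3 was also high in KO library 3 at 4 weeks (28.5, 31.2 and 72.8 CPM in KO libraries 1 to 3). Pax2 was nearest to Rarb, a retinoic acid receptor (0.93), and next to Wnt7b, a Wnt ligand of the collecting duct (0.91). Ret was nearest to Cdon, a Hedgehog co-receptor (0.91), and Gdnf to Tmem17 (0.92). Eya1 was nearest to Uck2, a uridine-cytidine kinase (0.92), Lhx1 to Bcat2, a branched-chain aminotransferase (0.97), Sall1 to Ninl (0.90) and Pax8 to Ntn4, a netrin (0.85). Osr1 was nearest to Rptor, a subunit of the mTOR complex (0.96), and both were lowest in the 2-week libraries numbered 1, where Rptor had 31.2, 49.0 and 50.7 CPM in WT libraries 1 to 3 and 33.4, 53.1 and 49.8 in KO. The second nearest were Rdh19 for Cited1 (0.93), R3hdml for Eya1 (0.91), Gtf3c1 for Osr1 (0.95), Lmo7 for Sall1 (0.88), Steap2 for Lhx1 (0.96), Fhip1a for Pax8 (0.80), Ppfia4 for Gdnf (0.92) and Nfe2l3 for Ret (0.90). Among the 9 themselves the highest correlations were Pax2 with Ret (0.81) and Eya1 with Gdnf (0.77), and the lowest was Lhx1 with Gdnf (-0.76).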

How the data were processed

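RNA was measured in 18 kidney libraries, 3 for each of 2 genotypes at 3 ages. The authors deposited 1 table that gives, for each gene and library, an estimated count and an FPKM, per the file headers. RSEM, StringTie 1.3.1, HISAT2 2.1.0, Bowtie2 and fastp are named in the submitters' processing notes. Genome build and strand setting were not given in the sources used here. Estimated counts, of which 6.86% to 8.44% were not whole, were rounded. Genes were filtered with edgeR's filterByExpr, scaled by TMM and tested in 1 quasi-likelihood model of 6 group means (R 4.3.3, edgeR 4.0.16), with Benjamini-Hochberg adjustment over 14774 genes and a threshold of 0.05. CPM are counts over the TMM-scaled library size. Alternatives were DESeq2 1.42.0, limma 3.58.1 on log2(FPKM + 1) and log2(FPKM + 0.1), other scalings, no filter, fits of the compared groups alone, a replicate block and leaving out single libraries. Library-total scaling and leaving out both 2-week libraries numbered 1 were chosen after seeing the data. On data simulated for the WT change from 1 to 4 weeks over 14603 genes, 74.2% of 97 genes changed by a fold of 2 and 90% of 100 changed by a fold of 4 were recovered, with 6.9% false calls. Few genes were changed there, up and down alike, so the choice of scaling was not tested. The changed genes were drawn at all levels and no effect of replicate number was simulated. The rates are therefore not those of rare genes such as Gdnf and Cited1.

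Replicate numbers are shared by the genotypes within an age. Within a number, the deviations of the WT and the KO library from the means of their groups correlated at 0.682, 0.315 and 0.458 at 2 weeks, so that the numbers were taken to pair libraries there, at -0.0402, 0.181 and 0.18 at 1 week and at 0.0679, 0.16 and 0.00764 at 4 weeks, where they were not. At 2 weeks WT library 2 and KO library 3 correlated at 0.352, above the 0.315 of the libraries numbered 2. Libraries numbered 1 were thus clearly matched, and numbers 2 and 3 less so. Calls with the replicate block therefore rest on a pairing that these values show only in part. The pairing comes from the data and not from the labels. The text names all 10 genes whatever their values, the first 4 genes of each developmental list (some are not reported here), and for each tested gene the 2 genes most like it; mature segments and other tissues are given by counts. The members and the lists were chosen with earlier results of these data known. Promoters came from RefSeq, gene positions from GENCODE M21, both on GRCm38.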

Additional observations from a re-analysis of the deposited data

How the results depend on the processing

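Over 90 results on single genes and 1441 alternative values, 1197 kept direction and side of the threshold, 55 no longer passed, 69 newly passed and 120 changed sign. No result that was called changed sign, and of 324 alternative values for called results 55 missed the threshold. The rare genes are limited by depth, with 177 counts in all for Gdnf, 250 for Eya1 and 408 for Cited1. Counts of members by setting are to be read against the calls over all genes, given above for library totals and the replicate block. For WT 1 to 2 weeks the number of the 9 genes called was 2, and 1 under library totals and limma on log2(FPKM + 0.1) and limma on log2(FPKM + 1) and the same with no filter, and 5 under the replicate block, and 4 under the fit without both 2-week libraries numbered 1. Of all genes, limma called 837 higher and 3142 lower on log2(FPKM + 0.1), and 851 and 3501 on log2(FPKM + 1) with the filter. For WT 2 to 4 weeks the number of the 9 genes called was 3, and 7 under library totals, and 5 under limma on log2(FPKM + 0.1) and limma on log2(FPKM + 1) and the replicate block and upper-quartile scaling. Of all genes, limma called 1262 higher and 7460 lower on log2(FPKM + 0.1), and 1262 and 7211 on log2(FPKM + 1). Upper-quartile scaling called 2825 higher and 4400 lower. For KO 1 to 2 weeks the number of the 9 genes called was 1, and 2 under library totals and limma on log2(FPKM + 0.1) and limma on log2(FPKM + 1) and the same with no filter and the replicate block. Of all genes, limma called 739 higher and 2658 lower on log2(FPKM + 0.1), and 754 and 3103 on log2(FPKM + 1) with the filter. For KO 2 to 4 weeks the number of the 9 genes called was 3, and 5 under limma on log2(FPKM + 0.1) and limma on log2(FPKM + 1) and the replicate block. Of all genes, limma called 1037 higher and 6177 lower on log2(FPKM + 0.1), and 1024 and 5967 on log2(FPKM + 1). For fits that leave out libraries, and for limma with no filter, the calls over all genes are not given here. Leaving out 1 library at a time gave counts of 1 to 3 for WT 1 to 2 weeks, 1 to 4 for WT 2 to 4 weeks, 3 to 6 for WT 1 to 4 weeks, 0 to 2 for KO 1 to 2 weeks, 0 to 1 for KO minus WT at 4 weeks. Signs changed under upper-quartile scaling, in log2, for KO 1 to 4 weeks in Pax8 -0.11, and for KO minus WT difference of the 1 to 4 week change in Eya1 0.014. Signs changed under limma on log2(FPKM + 1), with or without the filter, in log2, for WT 1 to 2 weeks in Pax2 -0.10, and for WT 1 to 4 weeks in Pax8 -0.55, Sall1 -0.28, Osr1 -0.073, and for KO 1 to 2 weeks in Pax2 -0.041, Ret -0.034, Osr1 -0.075, and for KO 2 to 4 weeks in Eya1 -0.10, and for KO 1 to 4 weeks in Pax8 -0.63, Osr1 -0.038, and for KO minus WT at 1 week in Lhx1 -0.10, Ret -0.0082, and for KO minus WT at 4 weeks in Eya1 -0.047, and for KO minus WT difference of the 1 to 4 week change in Lhx1 0.30, Osr1 0.035, Cited1 -0.050. Signs changed under limma on log2(FPKM + 0.1), in log2, for WT 1 to 2 weeks in Pax2 -0.11, and for WT 1 to 4 weeks in Pax8 -0.56, Sall1 -0.30, Osr1 -0.14, and for KO 1 to 2 weeks in Pax2 -0.046, Ret -0.11, Osr1 -0.35, and for KO 2 to 4 weeks in Eya1 -0.42, and for KO 1 to 4 weeks in Pax8 -0.65, Osr1 -0.088, and for KO minus WT at 1 week in Lhx1 -0.11, Gdnf -0.032, and for KO minus WT at 2 weeks in Pax2 -0.00025, and for KO minus WT at 4 weeks in Eya1 -0.16, and for KO minus WT difference of the 1 to 4 week change in Lhx1 0.34, Osr1 0.052, Cited1 -0.13. Signs changed under the replicate block, in log2, for KO 1 to 2 weeks in Osr1 -0.38, and for KO minus WT at 1 week in Gdnf -0.027. Signs changed under the fit without both 2-week libraries numbered 1, in log2, for WT 1 to 2 weeks in Ret 0.079, and for KO 1 to 2 weeks in Cited1 0.17, and for KO 2 to 4 weeks in Eya1 -0.0018, Osr1 -0.24. Signs changed under library totals, in log2, for WT 1 to 2 weeks in Pax2 -0.15, and for WT 1 to 4 weeks in Pax8 -0.52, Sall1 -0.30, Osr1 -0.14, and for KO 1 to 2 weeks in Ret -0.13, Osr1 -0.14, and for KO 2 to 4 weeks in Eya1 -0.24, Osr1 -0.18, and for KO 1 to 4 weeks in Pax8 -0.58, Osr1 -0.32, and for KO minus WT at 1 week in Ret -0.0023, and for KO minus WT difference of the 1 to 4 week change in Lhx1 0.052, Eya1 0.087. With 1 library left out at a time, results whose sign changed ranged, in log2, as follows. Pax2 WT 1 to 2 weeks -0.10 to 0.28, Ret WT 1 to 2 weeks -0.53 to 0.15, Pax2 KO minus WT at 1 week -0.23 to 0.091, Gdnf KO minus WT at 1 week -0.50 to 0.40, Pax8 KO minus WT at 1 week -0.066 to 0.094, Ret KO minus WT at 1 week -0.23 to 0.35, Cited1 KO minus WT at 1 week -0.12 to 0.29, Lhx1 KO minus WT difference of the 1 to 4 week change -0.24 to 0.060, Eya1 KO minus WT difference of the 1 to 4 week change -0.19 to 0.21, Cited1 KO minus WT difference of the 1 to 4 week change -1.92 to 1.81, Ret KO 1 to 2 weeks -0.15 to 0.26, Osr1 KO 1 to 2 weeks -0.31 to 0.52, Cited1 KO 1 to 2 weeks -0.71 to 0.17, Pax8 KO 1 to 4 weeks -0.17 to 0.15, Sall1 WT 2 to 4 weeks -0.27 to 0.035, Pax2 KO minus WT at 2 weeks -0.13 to 0.23, Gdnf KO minus WT at 2 weeks -0.42 to 1.19, Ret KO minus WT at 2 weeks -0.0026 to 0.61, Sall1 KO minus WT at 2 weeks -0.21 to 0.12, Osr1 KO minus WT at 2 weeks -0.35 to 0.76, Cited1 KO minus WT at 2 weeks -0.10 to 0.79, Eya1 KO 2 to 4 weeks -0.014 to 0.47, Osr1 KO 2 to 4 weeks -0.24 to 0.60, Lhx1 KO minus WT at 4 weeks -0.049 to 0.25, Cited1 KO minus WT at 4 weeks -1.81 to 1.92. The replicate block added the calls given beside the genes for steps that involve 2 weeks. At 1 and 4 weeks, where the numbers were not taken to pair libraries, the block moved 2 results from 1 to 4 weeks past the threshold, Sall1 in WT (0.42, edgeR adjusted p = 0.0270) and Ret in KO (-0.97, 0.0232). It changed no other call of the changes with age, of the genotype differences or of the difference in the 1 to 4 week change. The cause of each change was not tested.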

Other observations

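Outside the 10 genes, some genes of the developmental lists were called between genotypes at 4 weeks, where 3.23% of all genes were: 0 of 16 cap genes, 1 higher and 2 lower of 18 vesicle genes, 2 higher of 18 bud genes, 1 higher of 16 genes of Gdnf and Ret signalling, and 1 higher and 1 lower of 11 stroma genes. Not all of them are named here. Sox8, a factor of the ureteric tip and of Ret signalling, was higher in KO (1.93 ± 0.39 on the log2 scale, edgeR adjusted p = 0.0150), as were Slco4c1 of the bud list (1.18 ± 0.30, edgeR adjusted p = 0.0418) and Foxc2, a forkhead factor (0.97 ± 0.24, edgeR adjusted p = 0.0388). Cdh6, a cadherin of the early proximal nephron, was higher too (1.06 ± 0.15, edgeR adjusted p = 0.00228), as was Aldh1a2, an enzyme of retinoic acid synthesis in the stroma (2.01 ± 0.29, edgeR adjusted p = 0.00262). Lower in KO were Irx3, a homeobox factor of the nephron tubule (-0.62 ± 0.14, edgeR adjusted p = 0.0278), and Ntn1, a netrin (-0.47 ± 0.10, edgeR adjusted p = 0.0146). These 7 genes were named after their values were seen.

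The 2 deposited units gave different pictures of Eya1 at 1 week. In FPKM the KO libraries averaged 0.615 ± 0.221 and the WT libraries 0.296 ± 0.0964 (mean ± SD, n = 3) and did not overlap, while in CPM they averaged 1.25 ± 0.264 and 1.02 ± 0.313 and did. The count-based difference was 0.28 ± 0.34 (edgeR adjusted p = 1).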
